A study of Homo sapiens with 10 samples.

Results

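The miR-106b-25 and miR-106a-363 clusters are paralogous sets of microRNA (miRNA) genes, and 10 of their mature miRNAs were followed on arrays of HuH-7 cells, an established human hepatocellular carcinoma line. The members were taken by name from the array files, 6 of them from miR-106b-25 and 4 from miR-106a-363, and they are 10 of the 2565 miRNA probes on each array. Lenvatinib-treated HuH-7 cells had 1 µM lenvatinib, a multikinase inhibitor used against liver cancer that blocks VEGF and FGF receptors, for 96 h (5 arrays). Control HuH-7 cells were kept for 96 h without it (5 arrays), and the labels name no vehicle. Each array carried Cy5-labelled RNA of 1 sample, and the study looked for miRNAs linked to the drug's effect on the tumour cells. All 10 samples come from the same line, so it is the only genetic background tested. Nothing in the labels states that replicates were separate cultures, so p-values measure only array-to-array spread, and this may be technical.

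Both clusters arose from the same ancestor as the miR-17-92a-1 cluster, and in each a single primary transcript is cut into several hairpins, every one of which can give a 5p and a 3p mature miRNA. The miR-106b-25 hairpins lie in an intron of MCM7, which encodes a subunit of the replicative DNA helicase and is driven by E2F factors in dividing cells. A miRNA pairs with its targets mainly through its seed, bases 2 to 8. miR-106b-5p and miR-93-5p are known repressors of CDKN1A, the p21 inhibitor of the cell cycle, and miR-25-3p represses BCL2L11, the proapoptotic protein BIM. The miR-106b-25 cluster is commonly raised in hepatocellular carcinoma.

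By RefSeq's GRCh38.p14 annotation the 3 hairpins MIR25, MIR93 and MIR106B span 515 bases on the minus strand of chromosome 7, inside MCM7 (chr7:100092728-100101397). MIR363, MIR92A2, MIR19B2, MIR20B, MIR18B and MIR106A span 901 bases on the minus strand of chromosome X, inside the long noncoding RNA gene MIR106AHG (chrX:134169150-134174088). RefSeq holds a mature sequence for all 10 members, shown here 5′ to 3′ with the seed in capitals because the seed sets the families among which the values below are compared. The members that share the seed AAAGUGC come first.
hsa-miR-106b-5p (chr7:100094043-100094063): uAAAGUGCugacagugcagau
hsa-miR-93-5p (chr7:100093815-100093837): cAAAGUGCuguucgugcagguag
hsa-miR-106a-5p (chrX:134170244-134170266): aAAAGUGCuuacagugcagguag
hsa-miR-20b-5p (chrX:134169850-134169872): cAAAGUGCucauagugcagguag
hsa-miR-18b-5p (chrX:134170084-134170106): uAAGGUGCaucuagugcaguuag
hsa-miR-25-3p (chr7:100093571-100093592): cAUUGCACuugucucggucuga
hsa-miR-363-3p (chrX:134169382-134169403): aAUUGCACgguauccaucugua
The other arms of the chromosome 7 hairpins carry seeds of their own.
hsa-miR-106b-3p (chr7:100094002-100094023): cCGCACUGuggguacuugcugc
hsa-miR-93-3p (chr7:100093777-100093798): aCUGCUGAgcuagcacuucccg
hsa-miR-25-5p (chr7:100093610-100093630): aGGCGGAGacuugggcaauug

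The mir-106b and mir-25 hairpins show how both arms come from 1 precursor, and their mature arms stand in capitals.
mir-106b hairpin (chr7:100093993-100094074): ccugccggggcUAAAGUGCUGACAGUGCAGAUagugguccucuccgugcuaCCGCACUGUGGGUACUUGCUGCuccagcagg
mir-25 hairpin (chr7:100093560-100093643): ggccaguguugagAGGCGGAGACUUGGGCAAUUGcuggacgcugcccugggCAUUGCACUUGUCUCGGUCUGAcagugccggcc
In mir-106b the 5p arm carries the seed AAAGUGC, and in mir-25 the 3p arm carries a different one, AUUGCAC. Near-identical sequences can share signal on a hybridisation array. Counted from base 1 without gaps, miR-106a-5p differs from miR-17-5p of the chromosome 13 cluster only by A1C, miR-18b-5p from miR-18a-5p only by U20A, and miR-20b-5p from miR-20a-5p by C1U and C10U. miR-106b-5p differs from miR-93-5p at 5 of the 21 bases they share and from miR-106a-5p at 3. The part of cross-hybridisation in the values was not tested.

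The arrays of the groups differed in brightness as a whole. The background taken off each array was 62.2 to 85.5 intensity units on lenvatinib arrays and 30.9 to 34.6 on control arrays, a ratio of 2.04 between the group means. Spike controls were 1.23 higher on the log2 scale on lenvatinib arrays, and 858 miRNAs with a valid, detected spot on every array had a median 1.36 higher. The labels name no batch of arrays, and the brightness gap and the treatment cannot be told apart, so every change below is relative to the bulk of the miRNAs. Lenvatinib replicate 5 had the highest background and had correlations of 0.938 to 0.947 with the rest of its group, where the control arrays reached 0.969 to 0.983 among themselves. All 4 hepatocyte-lineage markers were detected on all arrays, as the label of the line implies, with miR-122-5p at 7246 to 9778 background-subtracted intensity units on lenvatinib arrays and 2815 to 3424 on control arrays. After quantile normalization all 4 also changed (limma adjusted p = 0.000121 to 0.0314). miR-122-5p, miR-192-5p and miR-194-5p rose by 0.35, 0.45 and 0.59 on the log2 scale, and miR-885-5p fell, at -1.22. The rise of miR-122-5p depends on the scaling. With the authors' global normalization it had 11223 to 14876 units on lenvatinib arrays and 11909 to 13767 on control arrays, which overlap. There miR-192-5p overlapped too, while all lenvatinib values stayed above the controls for miR-194-5p and below them for miR-885-5p. The extraction label names serum, and blood-cell markers were near the detection limit. The 3 erythroid markers summed to 0 to 23.9 units on lenvatinib arrays and 4.88 to 7.84 on control arrays, with miR-144-5p detected on none of the 10. The 4 leukocyte markers summed to 0 to 32.1 units on lenvatinib arrays and 8.20 to 13.5 on control arrays, and the 3 stromal and endothelial markers to 264.7 to 507.8 and 115.3 to 144.2. Of these 10 markers 6 were detected often enough to be tested, and 0 passed.

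The clearest pattern was at the start of the chromosome 7 cluster: both arms of mir-106b were lower on lenvatinib arrays, relative to the bulk of the miRNAs, while its transcript mates miR-93-5p and miR-25-3p did not pass the test. For miR-93-5p that depends on the setting, since it was called lower in 7 of 25 alternatives. After quantile normalization miR-106b-5p was 1.67-fold lower and miR-106b-3p 1.93-fold lower. On chromosome X, miR-18b-5p was 1.62-fold lower, whereas miR-106a-5p and miR-20b-5p, which share the seed of miR-106b-5p, were at -0.00048 and -0.023 on the log2 scale and did not pass. In all, 3 of 10 members fell and 0 rose, and the other 7 did not pass at an adjusted p of 0.05 (limma, adjusted over all 1346 tested probes). Over all tested probes 9.36% fell, 12.1% rose and 21.5% changed in either direction. For 4 of the 10 members all lenvatinib values lay below all control values, against 8.84% of all tested probes, and for 0 they lay above, against 11.1%. The median change was -0.34 over the 10 members and -0.03 over all tested probes.

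**Figure D1:**
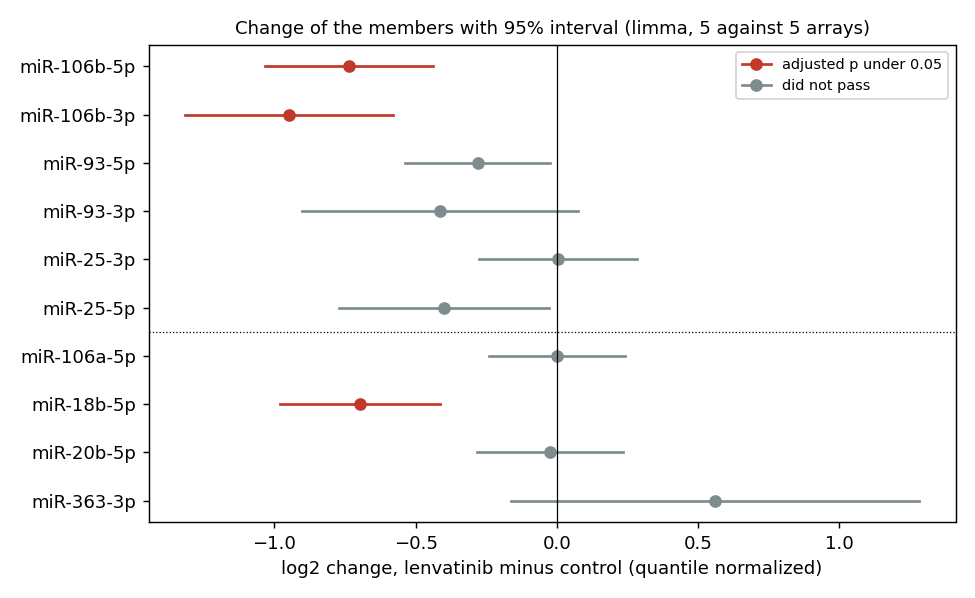
Log2 change of each member, lenvatinib minus control, after quantile normalization (points), with 95% intervals from limma (lines, 5 against 5 arrays), miR-106b-25 members above the dotted line and miR-106a-363 members below it. Both mir-106b arms and miR-18b-5p lie below 0 and passed, and miR-363-3p has the widest interval, from -0.16 to 1.28.

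miR-106b-5p, the first arm of the cluster in transcript order and the arm with the cell-cycle seed printed above, had background-subtracted intensities of 1341, 1550, 1482, 1513 and 1083 units on lenvatinib arrays 1 to 5. It had 1111, 1010, 1166, 1014 and 1130 units on control arrays 1 to 5. Before scaling, lenvatinib replicate 5 thus lay within the control range and the other 4 lay above it. Its unscaled change was 0.35 ± 0.10 on the log2 scale (SE, 5 against 5 arrays), well short of the 1.23 of the spike controls. The other members except miR-363-3p also fell short of it, at 0.42 to 1.06. After quantile normalization the mean log2 level of miR-106b-5p was 9.88 ± 0.23 on lenvatinib arrays and 10.62 ± 0.05 on control arrays (SD, n = 5 each), with no overlap. The change was -0.74 ± 0.14 (SE, limma adjusted p = 0.00234).

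miR-106b-3p, the opposite arm of the same hairpin, was dim, at 1.27 to 1.53 times background on lenvatinib arrays and 1.59 to 1.67 times on control arrays. Its background-subtracted intensities were 27.9, 33.1, 26.3, 31.1 and 22.9 units on lenvatinib arrays and 22.0, 20.5, 20.3, 20.4 and 21.4 units on control arrays. Every lenvatinib value was above every control value before scaling, by an unscaled change of 0.42 ± 0.10 (SE), close to that of the 5p arm. After quantile normalization the order was turned, with a mean log2 level of 4.16 ± 0.34 on lenvatinib arrays and 5.11 ± 0.11 on control arrays (SD, n = 5 each) and no overlap. The change was -0.95 ± 0.17 (SE, limma adjusted p = 0.00197). The size depends on the background correction, and with normexp correction, which compresses dim signals, it was -0.30 (limma adjusted p = 0.000233).

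**Figure D2:**
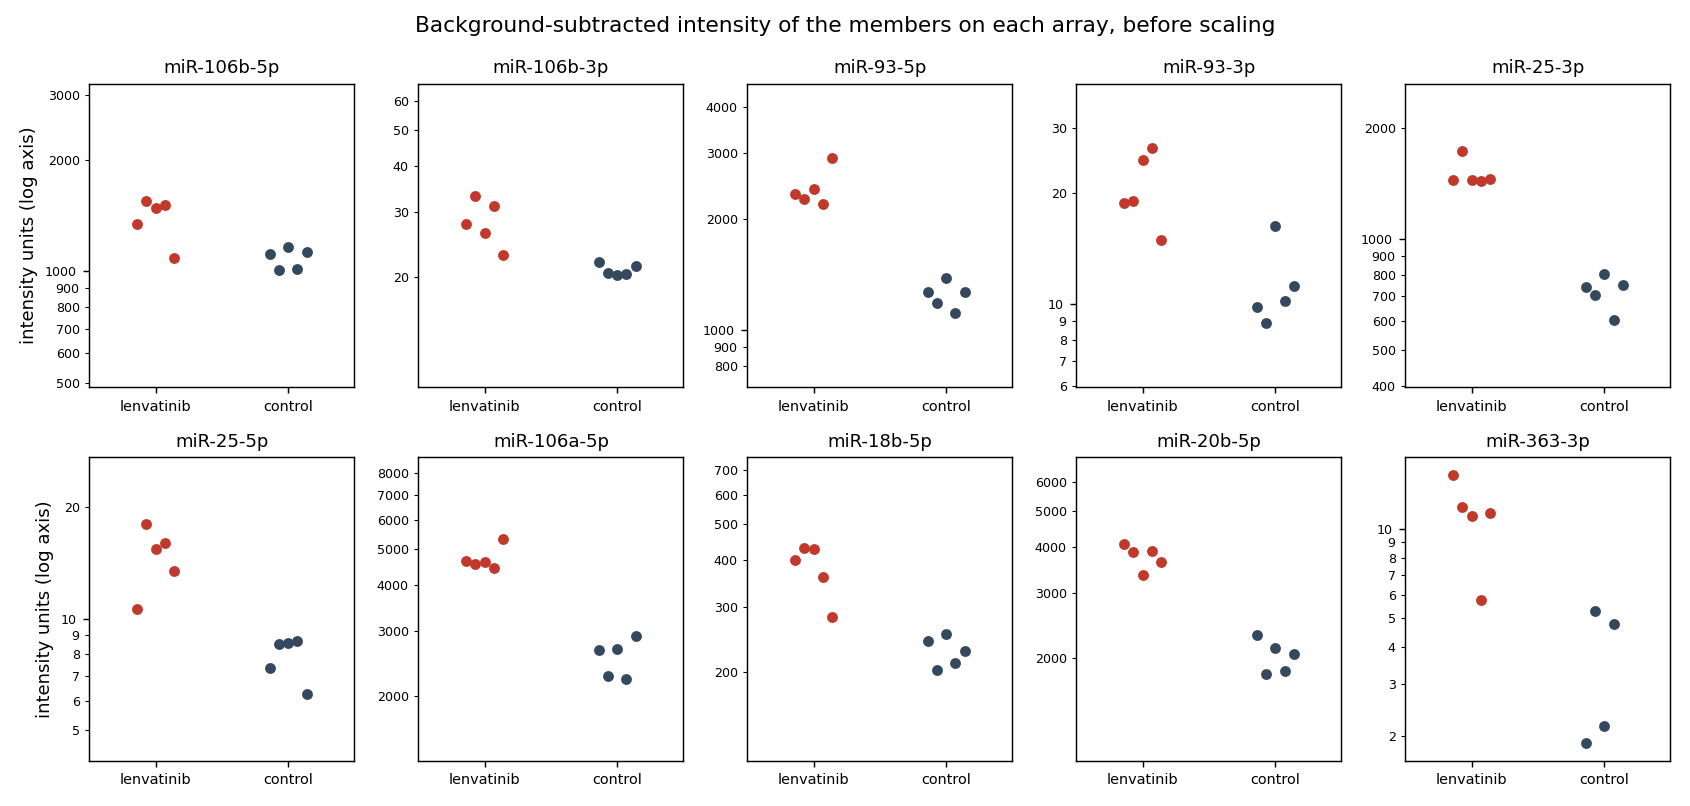
Background-subtracted intensity of each member before scaling (log axis, a range of its own per panel), with 1 point per array, lenvatinib left and control right; an undetected value is not drawn. miR-106b-5p overlaps between the groups and miR-106b-3p is close to doing so, while miR-93-5p, miR-25-3p, miR-106a-5p and miR-20b-5p are clearly higher on lenvatinib arrays.

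miR-93-5p, the next arm along the transcript and a member of the same seed family, had 2330, 2251, 2396, 2193 and 2913 units on lenvatinib arrays and 1269, 1185, 1382, 1113 and 1267 units on control arrays. All lenvatinib values were higher before scaling, by 0.96 ± 0.09 on the log2 scale (SE). After quantile normalization they were all lower, at 10.59 ± 0.15 on lenvatinib arrays and 10.87 ± 0.02 on control arrays (SD, n = 5 each). That difference of -0.28 ± 0.12 (SE) did not pass over all probes (limma adjusted p = 0.115), but it did without lenvatinib replicate 5 (-0.34, adjusted p = 0.0148). It was also called lower with normexp correction (-0.27, adjusted p = 0.00678), without background correction (0.00688), scaled to the 75th percentile (-0.56, 0.00774), with an intensity trend (0.0135), without the detection filter (0.0331) and in the authors' deposited table (-0.28, 0.0409). miR-93-3p, the opposite arm, was at most 1.47 times background on any array. It had 14.9 to 26.5 units on lenvatinib arrays and 8.90 to 16.3 units on control arrays, which overlap, and its change was -0.41 ± 0.22 (SE, limma adjusted p = 0.225).

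miR-25-3p, the miR-92 seed arm of the last hairpin, had 1447, 1728, 1441, 1435 and 1450 units on lenvatinib arrays and 740.9, 706.2, 806.4, 606.1 and 750.9 units on control arrays. The groups lay well apart before scaling, by 1.06 ± 0.09 (SE). After quantile normalization they overlapped, at 10.00 ± 0.21 on lenvatinib arrays and 10.00 ± 0.002 on control arrays (SD, n = 5 each), and the change was 0.004 ± 0.13 (SE, limma adjusted p = 0.989). The small control SD comes from the method, because a probe that holds the same rank on several arrays gets the same value there. miR-25-5p, the opposite arm, had 10.6 to 18.0 units on lenvatinib arrays and 6.26 to 8.70 on control arrays, and its normalized change was -0.40 ± 0.17 (SE, limma adjusted p = 0.122).

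A scale factor common to an array cancels in the difference between the log2 values of 2 probes on it. Quantile normalization is not such a factor, and shifts after it can differ from those before scaling. The question was then whether the arms and mates changed alike, and 12 pairs were compared, 3 of arms and 9 of mates, with p-values adjusted over the 12. Each test was an exact two-sided permutation test over all splits of the arrays, whose smallest p is 0.00794. Only the shift of a difference between the groups is read, not the level of 1 probe against another.

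miR-93-5p minus miR-106b-5p was 0.71 ± 0.38 on lenvatinib arrays and 0.26 ± 0.07 on control arrays (SD, n = 5 each), with no overlap. The shift of 0.46 ± 0.17 (SE) had an exact permutation p of 0.00794 and an adjusted p of 0.0190. It was 0.61 before scaling (exact permutation p = 0.00794, adjusted p = 0.0476) and 0.64 after cyclic loess. Without lenvatinib replicate 5, where this difference was 1.32, the shift was 0.30. miR-25-3p minus miR-106b-5p shifted more, by 0.74 ± 0.19 (SE, exact permutation adjusted p = 0.0190), at 0.12 ± 0.42 on lenvatinib arrays and -0.62 ± 0.05 on control arrays (SD, n = 5 each). It was 0.71 before scaling, 0.69 after cyclic loess and 0.70 with normexp correction, and lowest at 0.57 without lenvatinib replicate 5. In these data miR-106b-5p thus fell relative to both mates under each of these settings.

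The difference between miR-25-3p and miR-93-5p was not as steady. It shifted by 0.28 ± 0.05 after quantile normalization (SE, exact permutation adjusted p = 0.0190), by 0.10 before scaling (adjusted p = 0.508) and by 0.06 after cyclic loess (adjusted p = 0.868).

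None of the 3 pairs of arms shifted past the threshold after quantile normalization. miR-106b-3p minus miR-106b-5p shifted by -0.21 ± 0.11 (SE, exact permutation adjusted p = 0.131), by 0.07 before scaling and by 0.03 after cyclic loess. With normexp correction the sign turned, to 0.40 (adjusted p = 0.0136). The shifts of the mir-93 and mir-25 arms were -0.13 ± 0.29 and -0.40 ± 0.21 (SE, adjusted p = 0.779 and 0.131). All 3 opposite arms lay close to background, and these p-values do not show that the arms changed alike.

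**Figure D3:**
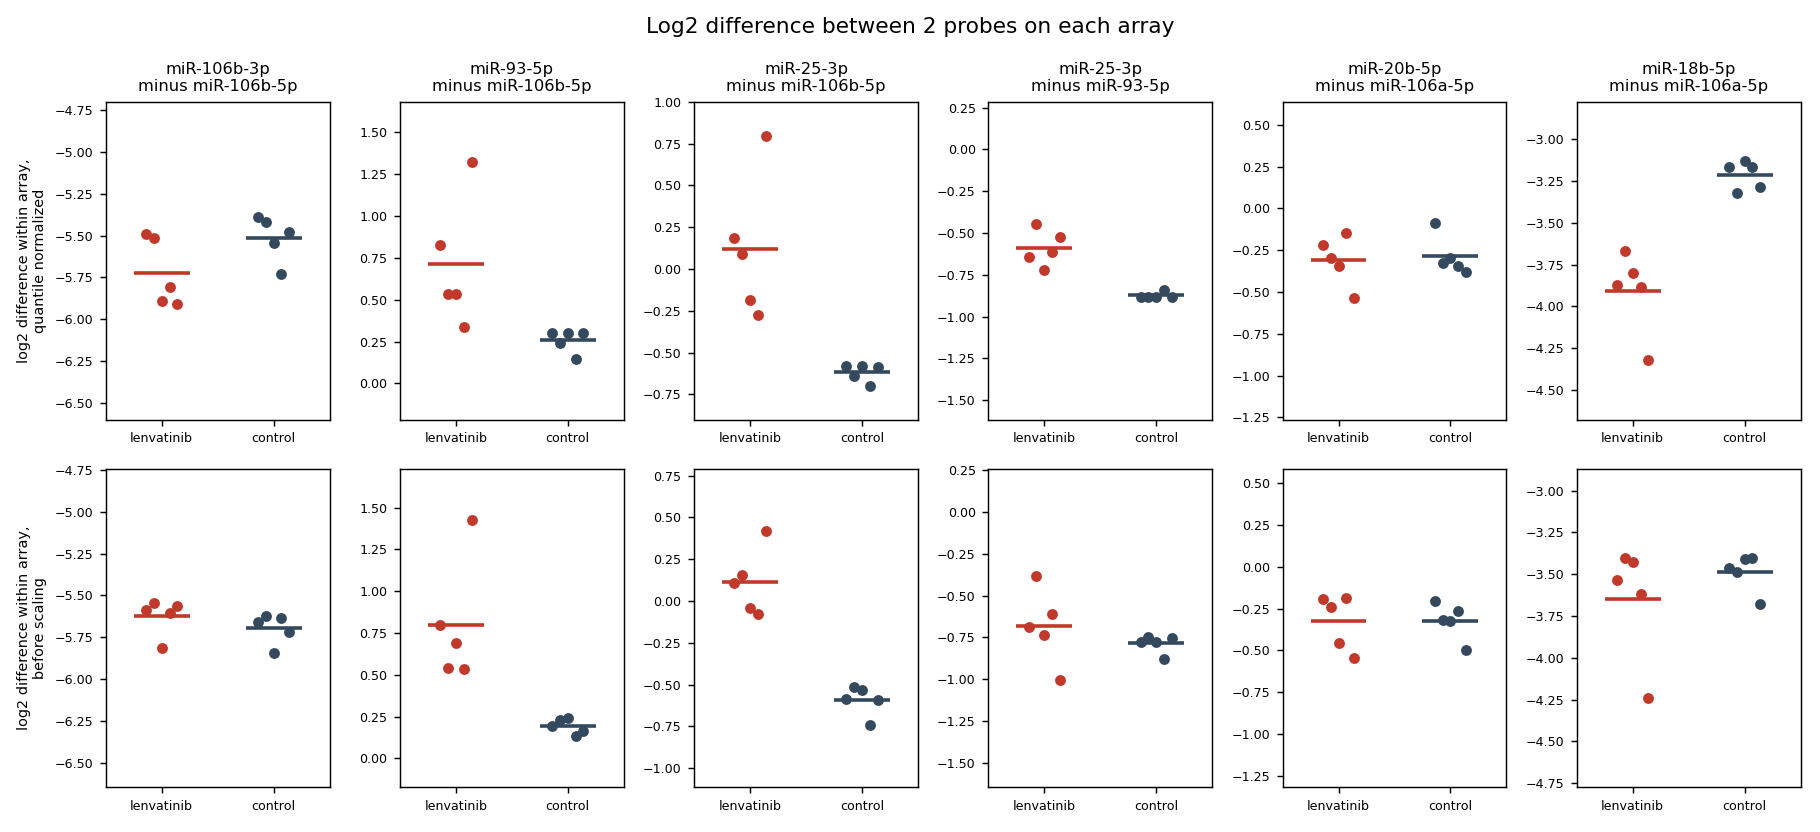
Log2 difference between 2 probes on each array, after quantile normalization (upper row) and before scaling (lower row), for 6 of the 12 pairs; points are arrays and bars are group means, lenvatinib left and control right. The panels of miR-93-5p and miR-25-3p against miR-106b-5p separate the groups in both rows, while that of miR-18b-5p against miR-106a-5p does so only in the upper row.

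On chromosome X, miR-106a-5p, which shares the seed of miR-106b-5p, had 4648, 4560, 4616, 4440 and 5306 units on lenvatinib arrays and 2668, 2266, 2678, 2225 and 2899 units on control arrays. All lenvatinib values were higher before scaling, by 0.89 ± 0.09 (SE). After quantile normalization the groups overlapped, at 11.73 ± 0.09 on lenvatinib arrays and 11.73 ± 0.05 on control arrays (SD, n = 5 each), with limma's adjusted p = 0.999. miR-20b-5p, of the same seed family, followed it closely. It had 3364 to 4070 units on lenvatinib arrays and 1814 to 2314 units on control arrays, an unscaled change of 0.89 ± 0.08 (SE), and a normalized change of -0.02 ± 0.12 (SE, limma adjusted p = 0.922). The difference between the pair shifted by -0.02 ± 0.08 (SE, exact permutation adjusted p = 0.810) and by -0.0014 before scaling, which does not show that they changed alike.

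The directions of these bright probes rest on the scaling. miR-106a-5p was at -0.46 after scaling to the median (limma adjusted p = 0.0440), -0.62 to the 75th percentile (adjusted p = 0.00453), -0.36 after cyclic loess (adjusted p = 0.0542) and -0.34 to the spike controls (adjusted p = 0.0761). miR-20b-5p was at -0.46, -0.62, -0.38 and -0.34 in the same settings (adjusted p = 0.0654, 0.00546, 0.0324 and 0.133). miR-25-3p was at -0.30, -0.45, -0.31 and -0.17 (adjusted p = 0.249, 0.0292, 0.0772 and 0.464). All 3 thus passed as lower at the 75th percentile, miR-106a-5p also after scaling to the median and miR-20b-5p also after cyclic loess. Both mir-106b arms stayed lower than these in each of the 5 scalings, at -0.74 to -1.16 for miR-106b-5p and -0.81 to -1.09 for miR-106b-3p.

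**Figure D4:**
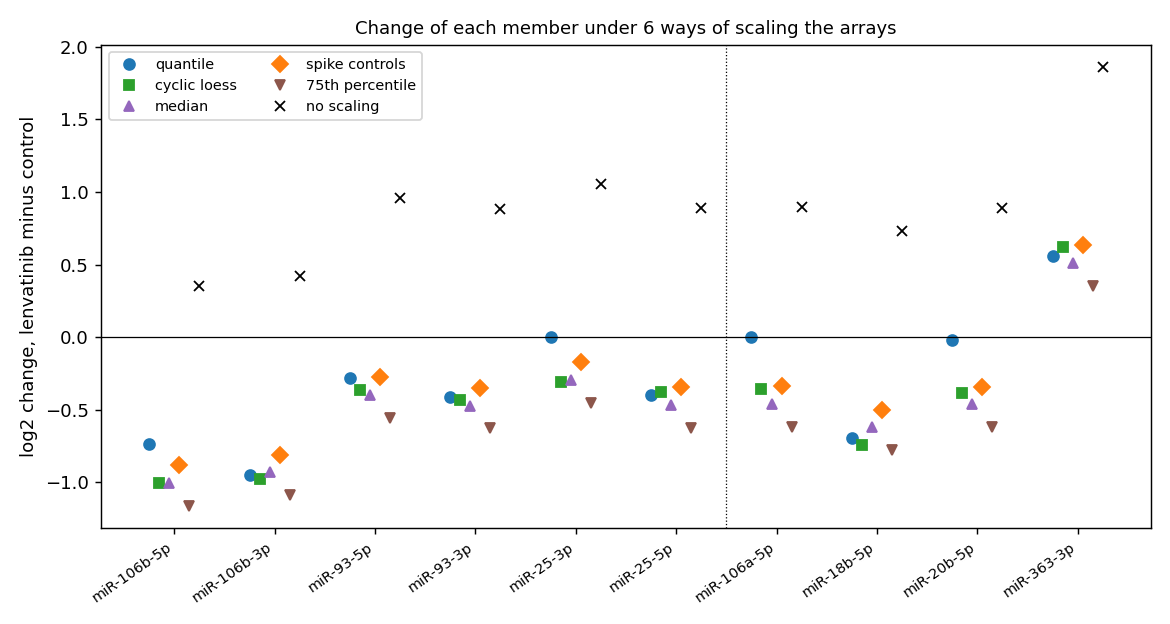
Log2 change of each member, lenvatinib minus control, under 6 ways of scaling the arrays (symbols), miR-106b-25 members left of the dotted line. The mir-106b arms lie lowest among the members in all 6, also in the unscaled values (crosses), where all 10 members lie above 0 and these arms are at 0.35 and 0.42.

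miR-18b-5p, the only member with the miR-18 seed, had 401.0, 430.8, 428.4, 361.1 and 280.2 units on lenvatinib arrays and 242.0, 202.2, 252.2, 210.8 and 226.9 units on control arrays. Lenvatinib replicate 5 was the lowest of its group, and all lenvatinib values were above the controls before scaling. After quantile normalization the groups lay apart the other way, at 7.82 ± 0.21 on lenvatinib arrays and 8.52 ± 0.04 on control arrays (SD, n = 5 each). The change was -0.70 ± 0.13 (SE, limma adjusted p = 0.00248), and it no longer passed when arrays were scaled to the median (-0.62, adjusted p = 0.0530), to the spike controls (-0.50, adjusted p = 0.0947) and with the authors' global normalization (-0.61, adjusted p = 0.0874). Against its mate miR-106a-5p it shifted by -0.70 ± 0.12 after quantile normalization (SE, exact permutation adjusted p = 0.0190), but by only -0.16 before scaling (adjusted p = 0.524) and -0.38 after cyclic loess (adjusted p = 0.0952). The same held against miR-20b-5p, with shifts of 0.67, 0.16 and 0.36 for miR-20b-5p minus miR-18b-5p.

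miR-363-3p, the miR-92 seed member of the chromosome X cluster, was barely detected. It had 15.2, 11.9, 11.03, 5.76 and 11.3 units on lenvatinib arrays and 1.90, 5.28, 2.16 and 4.77 units on control arrays 1 to 4, and control replicate 5 was below the detection limit. Every lenvatinib value was above every detected control value before scaling, and the normalized change of 0.56 ± 0.33 did not pass (SE, limma adjusted p = 0.266, with control replicate 5 set to its array's lowest detected value). Its shifts against miR-106a-5p and miR-20b-5p, 0.56 and 0.58, did not pass (exact permutation adjusted p = 0.181 and 0.159). Against miR-18b-5p it shifted by 1.26 ± 0.36 (SE, exact permutation adjusted p = 0.0476), a call that was lost on leaving out any of control replicates 1, 3 and 5 and lenvatinib replicates 1, 2, 3 and 5 (1.12 to 1.25) and kept in 4 of 14 alternatives.

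Of 6 other arms of the chromosome X cluster, 4 were tested and 0 passed, the smallest p being that of miR-18b-3p (-0.60, limma adjusted p = 0.0875). Mature miR-19b-3p and miR-92a-3p come from both this cluster and the chromosome 13 cluster, and their probes cannot tell the sources apart. In the paralogous miR-17-92a-1 cluster 6 of 10 tested members fell and 0 rose, against 9.36% and 12.1% of all tested probes, with a median change of -0.71. The falls there were miR-19a-3p at -1.30, miR-17-3p at -0.92, miR-20a-3p at -0.78, miR-18a-5p at -0.74, miR-19b-3p at -0.69 and miR-19b-1-5p. The last was detected on 3 of 5 lenvatinib arrays, at 1.03 to 1.11 times background on the 5, with replicates 3 and 5 set to the lowest detected value, so its fitted -1.34 is no measured size. The -0.69 of miR-19b-3p rests on 4 lenvatinib arrays, since the spot of replicate 5 was rejected. For miR-19a-3p, miR-17-3p, miR-20a-3p and miR-18a-5p, lenvatinib replicate 5 had the lowest normalized value of its group. For miR-19a-3p it was 7.30 on the log2 scale, against 8.39 to 8.76 on the other lenvatinib arrays. miR-17-5p, which differs from miR-106a-5p by 1 base, was at -0.20 ± 0.15 (SE, limma adjusted p = 0.400), and miR-20a-5p, the near copy of miR-20b-5p, at -0.12 ± 0.12 (SE, adjusted p = 0.543, on 4 lenvatinib arrays since the spot of replicate 5 was rejected). miR-18a-5p and its near copy miR-18b-5p both fell, by close to the same amount. Among 7 tested miRNAs outside the 10 members that share a seed with at least 1 of them, 1 fell, miR-18a-5p, and 0 rose.

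As a description with no test, probes were ranked by the root mean square difference between their log2 values and those of miR-106b-5p over the 10 arrays, each centred on its own mean, among the 1335 other tested probes with a value on all arrays. The 3 nearest were miR-21-5p at 0.11, miR-1913 at 0.12 and miR-18b-5p at 0.13. Of its cluster, miR-106b-3p ranked 13, miR-25-5p 44, miR-93-3p 140, miR-93-5p 169 and miR-25-3p 451. From chromosome X, miR-20b-5p ranked 289, miR-106a-5p 352 and miR-363-3p 1239. After scaling to the median, miR-106b-3p ranked 1 at 0.10, ahead of miR-6872-3p and miR-362-3p. There miR-93-3p ranked 103, miR-25-5p 109, miR-25-3p 142 and miR-93-5p 147. In that setting miR-18b-5p at 24, miR-20b-5p at 75 and miR-106a-5p at 99 were nearer than these mates, and miR-363-3p ranked 1237. For miR-106a-5p the nearest were miR-1260b at 0.06, miR-4454 at 0.07 and miR-6743-3p at 0.10, with miR-25-3p at rank 5, miR-20b-5p at rank 11, miR-93-5p at rank 32 and miR-18b-5p at rank 620. After scaling to the median its nearest were miR-335-5p, miR-221-3p and miR-93-5p, with miR-20b-5p at rank 9.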

How the data were processed

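Per the labels' protocols, RNA of each HuH-7 sample was labelled with Cy5 and hybridised alone to a 3D-Gene array. The sources used here do not give the scanner, its software or the slide. Per the file headers, the authors deposited raw, background-subtracted and globally normalized intensity on a linear scale. From the values, the subtracted background equalled the mean of 320 blank spots trimmed by 5% at each end, and a cell was filled only above that mean plus 2 SD. The deposited table of the whole series holds linear intensity of 803 probes, with sorted columns within 0.1 of each other and a median of 24.3; it is not centred.

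Undetected probes were set to their array's lowest detected value, NG spots (rejected in the files) were left out, and log2 values were quantile normalized. Probes detected on at least 5 of 10 arrays were tested with limma 3.58.1 in R 4.3.3 (two-sided, Benjamini-Hochberg, threshold 0.05), checked on simulated data. Log2 changes are lenvatinib minus control, and a fold given as lower is control over lenvatinib. All 10 members are named, and of other lists the members that passed and up to 4 more with the smallest p. The members and lists were chosen with earlier results of these data known. Spike control scaling was added after seeing the data. The number of arrays limits precision.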

Additional observations from a re-analysis of the deposited data

Results flagged for a closer look

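Chance alone would mark about 1 in 20 groups of 5 for a value that stands apart from the other 4, and 2 of the 20 groups of normalized member values were marked. miR-93-5p on control replicate 4 had a log2 value of 10.84 against 10.88 on the other 4 control arrays. miR-25-3p on control replicate 5 had 9.99, against 10.00 on the other 4. In both, the other values were tied or nearly so after quantile normalization, and the gaps are small beside the spread of the lenvatinib arrays.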

How the results depend on the processing

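Over 25 alternatives (23 for miR-363-3p), the calls of miR-106b-5p and miR-106b-3p held downward in 24 each and that of miR-18b-5p in 21. With no scaling, where the median of all tested probes was 1.30, 1287 probes were called higher and 2 lower, 10 members higher and 0 lower, and changes turned to 0.35 (miR-106b-5p), 0.42 (miR-106b-3p), 0.96 (miR-93-5p), 0.88 (miR-93-3p), 0.89 (miR-25-5p, miR-106a-5p and miR-20b-5p) and 0.73 (miR-18b-5p). Scaling to the 75th percentile put the median at -0.21 and called 9 members lower, with 111 probes higher and 238 lower against 163 and 126; spike control scaling gave 197 higher and 83 lower. miR-25-3p, at 0.004, turned to -0.30 (median), -0.45 (75th percentile), -0.31 (cyclic loess), -0.28 (authors' global normalization), -0.015 (NG spots kept) and -0.17 (spike controls), and miR-106a-5p to 0.019 in the authors' deposited table. Leaving out 1 array gave -0.071 to 0.051 for miR-25-3p, -0.024 to 0.030 for miR-106a-5p, -0.070 to 0.019 for miR-20b-5p, -0.062 to 0.035 for miR-20b-5p minus miR-106a-5p and -0.26 to 0.099 for miR-93-3p minus miR-93-5p. The cause of these turns was not tested.

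Of 12 pairs 6 passed, against 2 with no scaling and 2 after cyclic loess. The mir-106b arms turned to 0.073, 0.025 and 0.40 with no scaling, cyclic loess and normexp, and the mir-93 arms to 0.18 with normexp. With the replicate number as a block, no member's call changed, 142 probes were called higher and 115 lower, and 0 pairs passed, where 5 sign flips allow no p under 0.0625. Deviations of same-numbered arrays correlated at 0.11 to 0.14 in 4 pairs and 0.00085 in that of replicate 5, and 6 of 10 arrays correlated best with their own number, a hint of pairing from the data. The labels do not state pairing and not every pair was over 0.1, the limit set for it, so the block was kept as an alternative. Signal over background limits miR-106b-3p, miR-93-3p, miR-25-5p and miR-363-3p. The intensity columns give no depth.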
